A study of Rattus norvegicus with 34 samples.

Results

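The Cyp2c genes encode cytochrome P450 enzymes of the endoplasmic reticulum of hepatocytes. The 5 genes followed here, Cyp2c11, Cyp2c12, Cyp2c7, Cyp2c22 and Cyp2c23, were taken by gene symbol from the array's annotation, each represented by its probe set with the highest mean signal in a strain. Each of the 5 had 1 probe set. They were 5 of 11943 genes with a probe set in F344 rats and of 11984 in Brown Norway rats, and all 5 passed the filter on low signals in both strains.

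The data were 34 livers of male rats, with 1 Affymetrix Rat 230 2.0 array per animal. F344 rats were 6, 11, 18 or 24 months old (n = 4 each), had received nothing, and had stayed at their supplier until the last week of life. Brown Norway rats were 4, 12 or 24 months old. At each age 3 had received toluene (1 g/kg by gavage in corn oil, killed 4 h later) and 3 controls had received no treatment, and all were housed one to a cage. Gavage and corn oil therefore cannot be told apart from toluene. The sources used here do not say at what hour the rats were killed. The strains were scaled separately and differ in housing and youngest age, so only changes with age are set side by side.

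As background, P450 enzymes use electrons from NADPH-P450 reductase to oxidise steroids, fatty acids, retinoids and drugs. In rat liver several Cyp2c genes differ by sex. Cyp2c11, the main male-specific form, hydroxylates testosterone, and Cyp2c12, the female-specific form, acts on steroid sulfates. The sex pattern is set by growth hormone, which the male pituitary releases in pulses and the female pituitary more evenly, with the hormone acting through Stat5b and liver factors such as HNF4, HNF6 and Cux2. Cyp2c7 and Cyp2c22 hydroxylate retinoids, and Cyp2c23 makes epoxides from arachidonic acid.

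The Cyp2c genes followed here lie on rat chromosome 1, and other chromosomes were not searched for further Cyp2c genes. In the RefSeq annotation of GRCr8, Cyp2c7, Cyp2c12, Cyp2c13 and Cyp2c22 stand in that order within 1 stretch, Cyp2c11 lies at the other end of the cluster, and 51 coding genes separate Cyp2c22 from Cyp2c23. The start-site windows of the genes that moved, with that of Cyp2c7, a neighbour that did not pass the test, are shown for comparison. They run from 250 bases before to 50 bases after the start site and come from RefSeq, build GRCr8, whose reference animal is a Brown Norway rat. Each is printed 5′ to 3′ on the gene's strand, and capitals mark every match, on either strand, to 5 motifs. The factor HNF6 was searched for as the letters ATCAAT. The nuclear receptor HNF4 was searched for as CAAAGTNCA. The pioneer factor FOXA was searched for as TGTTTAC, the box bound by the general transcription machinery as TATAAA, and the growth hormone effector STAT5 as TTCNNNGAA.
Cyp2c11 (chr1:246174966-246175265, plus strand): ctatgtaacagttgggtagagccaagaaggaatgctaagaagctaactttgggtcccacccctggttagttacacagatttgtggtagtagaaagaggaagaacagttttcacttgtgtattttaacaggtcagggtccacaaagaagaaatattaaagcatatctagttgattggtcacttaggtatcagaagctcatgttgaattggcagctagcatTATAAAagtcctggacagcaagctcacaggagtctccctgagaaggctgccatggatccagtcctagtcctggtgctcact
Cyp2c12 (chr1:248676985-248677284, minus strand): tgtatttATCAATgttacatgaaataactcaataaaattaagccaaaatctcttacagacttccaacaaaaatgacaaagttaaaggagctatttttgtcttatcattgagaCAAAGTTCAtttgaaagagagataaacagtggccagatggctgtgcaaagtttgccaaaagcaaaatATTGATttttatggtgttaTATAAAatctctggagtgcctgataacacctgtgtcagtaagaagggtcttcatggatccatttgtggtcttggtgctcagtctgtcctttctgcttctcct
Cyp2c13 (chr1:248787139-248787438, minus strand): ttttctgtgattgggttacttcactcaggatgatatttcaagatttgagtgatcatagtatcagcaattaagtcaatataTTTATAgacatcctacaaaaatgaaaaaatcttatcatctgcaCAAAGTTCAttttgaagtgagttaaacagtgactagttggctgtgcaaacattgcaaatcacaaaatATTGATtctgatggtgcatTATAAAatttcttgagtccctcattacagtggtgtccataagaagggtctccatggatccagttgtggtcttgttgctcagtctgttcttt
Cyp2c7 (chr1:247966144-247966443, plus strand): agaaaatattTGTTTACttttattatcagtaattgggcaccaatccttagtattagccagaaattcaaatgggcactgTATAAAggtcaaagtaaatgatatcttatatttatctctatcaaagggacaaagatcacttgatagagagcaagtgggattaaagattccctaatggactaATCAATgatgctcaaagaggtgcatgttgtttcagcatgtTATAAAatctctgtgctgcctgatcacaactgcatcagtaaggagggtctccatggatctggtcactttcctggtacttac

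The Cyp2c12 window held 2 HNF6 matches and 1 HNF4 match, and the Cyp2c13 window 1 of each. HNF6 matches occurred in 8.06% of 33469 rat windows of the same length and HNF4 matches in 1.24%. The Cyp2c11 window held only a TATA match, 31 bases before the start site, a motif present in 14.2% of windows. The Cyp2c7 window held 1 HNF6 match and 1 FOXA match (3.78% of windows), and the Cyp2c22 and Cyp2c23 windows 1 FOXA match each. TATA matches also stood in the Cyp2c12, Cyp2c13, Cyp2c7 and Cyp2c22 windows, but not in that of Cyp2c23. No STAT5 match was found in any of the 6 Cyp2c windows searched, against 8.87% of windows. A match is a run of letters and not a shown binding site, and no match says only that these letters are not in this window. The Cyp2c12 and Cyp2c13 windows were 67.5% identical over their alignment, more than Cyp2c11 and Cyp2c12 (53.5%). The annotated start used for Cyp2c12 lies 4911 bases inside the outer end of its annotated gene.

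In F344 liver at 24 months Cyp2c11 fell 21.7-fold and Cyp2c12 rose 19.7-fold against 6 months. Cyp2c11 gave signals of 548, 208, 387 and 120 in the 4 rats of 24 months, against 5978, 5597, 6219 and 5624 in the 4 rats of 6 months. The highest 24-month rat lay far below the lowest 6-month rat. The mean was 316 ± 191 at 24 months and 5855 ± 299 at 6 months (SD, n = 4 each), a log2 fold change of -4.44 (SE 0.32, 95% interval -5.11 to -3.76). The adjusted p was 1.85e-07, from limma with Benjamini-Hochberg adjustment over 9206 genes, and the fall was the 4th deepest of these genes.

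Cyp2c12 did the reverse. Its signals were 5712, 6662, 5935 and 7441 in the rats of 24 months, against 367, 336, 221 and 405 in the rats of 6 months, and the groups did not overlap. The mean was 6437 ± 783 at 24 months and 332 ± 79.1 at 6 months (SD, n = 4 each), a log2 fold change of 4.30 (SE 0.56, 95% interval 3.11 to 5.50, adjusted p = 0.000206 in the same limma fit). Only 2 genes of 9206 rose further. Of the 5 Cyp2c genes, 1 rose and 1 fell, where 4.43% of all tested genes rose and 2.97% fell, 7.4% in all. Groups without overlap were found for 15.4% of genes.

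The change came late. At 18 months Cyp2c11 stood at 4979, 4836, 4376 and 6579, and at 11 months at 6950, 6070, 5744 and 5387, so both middle ages overlapped with 6 months. Cyp2c12 gave 262, 145, 1013 and 143 at 18 months and 177, 957, 973 and 342 at 11 months, also overlapping with 6 months. Between 24 and 18 months the log2 fold change was -4.25 for Cyp2c11 (SE 0.32, adjusted p = 4.27e-07, limma) and 4.55 for Cyp2c12 (SE 0.56, adjusted p = 0.000212, limma), where 1.76% of genes passed. Between 24 and 11 months the same pair passed (log2 fold changes -4.48 and 3.72), where 4.92% of genes passed. In limma, 0 of the 5 genes passed at 18 against 6 months, 18 against 11 months or 11 against 6 months, and 0 had an unadjusted p under 0.05. Over all genes, 1.08%, 0.293% and 0% passed in these comparisons, and 11.8%, 11.1% and 3.88% had an unadjusted p under 0.05.

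**Figure D1:**
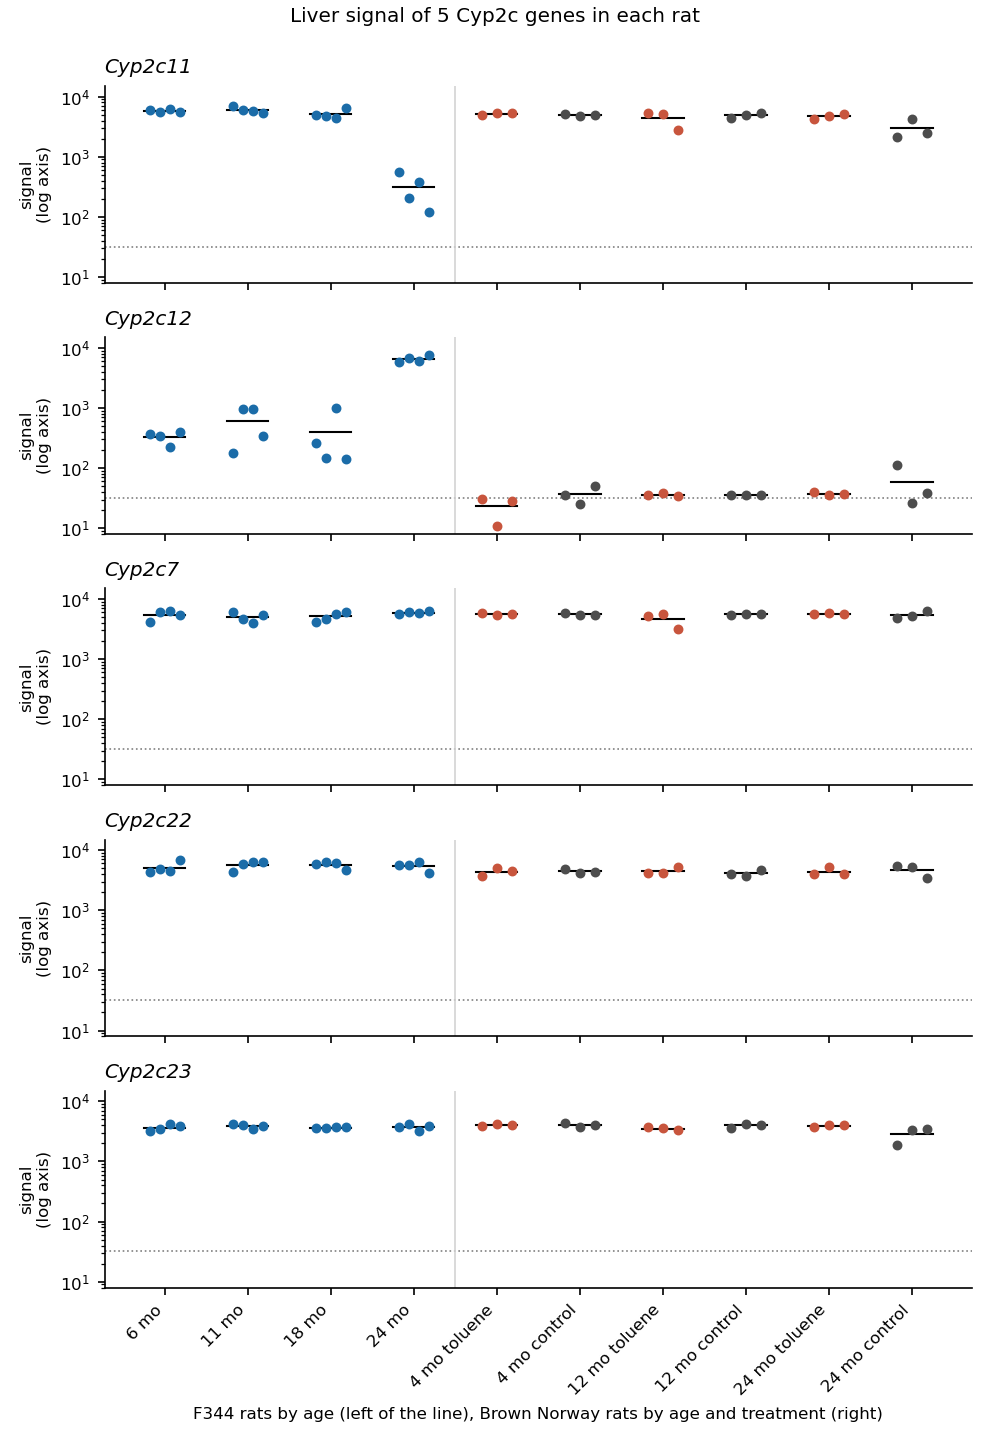
Signal (log axis) of the 5 Cyp2c genes in each rat, with 1 point per animal and a line at each group's mean. F344 rats stand left of the vertical line by age, and Brown Norway rats right of it, toluene (orange) beside control (grey). The dotted line is the floor of 32. In F344 rats of 24 months Cyp2c11 lies below all its other F344 values, with a mean of 316, and Cyp2c12 above all of its own, with a mean of 6437. Heights are read within a panel, not between panels.

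Rats of 24 months differed from each other. Cyp2c11 was highest in replicate 1 and lowest in replicate 4, and Cyp2c12 was in the opposite order over all 4 animals, a description over 4 rats. The residual SD of log2 signal within F344 groups was 0.51 for Cyp2c11 and 0.92 for Cyp2c12, against a median of 0.23 over the 9206 genes. Cyp2c12 thus varied more between animals of a group than 99.7% of genes, with a wide scatter at 11 and 18 months.

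**Figure D2:**
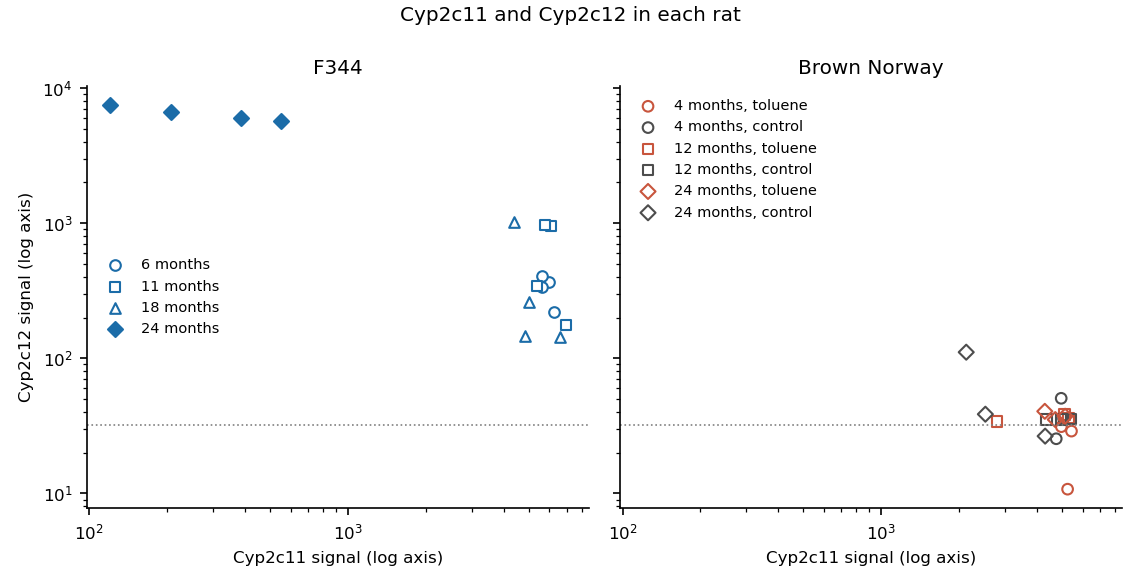
Cyp2c12 signal against Cyp2c11 signal in each of the 34 rats (both axes log, one panel per strain, the dotted line at the floor of 32). The 4 F344 rats of 24 months (filled) lie apart at upper left, with Cyp2c11 between 120 and 548 and Cyp2c12 between 5712 and 7441. No Brown Norway rat has Cyp2c12 above 111.

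The retinoid hydroxylases and the epoxygenase gave no call in F344 rats. Cyp2c7 gave 5582, 6033, 5731 and 6183 at 24 months, against 4197, 5991, 6267 and 5408 at 6 months. The ranges overlapped, with a log2 fold change of 0.12 (95% interval -0.22 to 0.46). Cyp2c22 differed by 0.10 (95% interval -0.27 to 0.48) and Cyp2c23 by 0.04 (95% interval -0.19 to 0.27). Over all 16 F344 arrays Cyp2c22 ranged between 4163 and 6847 and Cyp2c23 between 3240 and 4260. Changes larger than these intervals were not detected. All 5 genes have signals in the upper part of the arrays' scale, Cyp2c11 at 6 to 18 months and Cyp2c12 at 24 months included. The highest signal of an F344 array was 8863 to 11068. Whether the scale is compressed there was not tested, and it bears on the sizes of the Cyp2c11 and Cyp2c12 changes too.

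Both other Cyp2c genes with a probe set were followed in the same way. Cyp2c13, another male-specific form, gave 1485, 387, 2842 and 361 at 24 months, against 5195, 4592, 4753 and 4662 at 6 months, without overlap. Its log2 fold change was -2.45 (SE 0.46, adjusted p = 0.00352, limma), and the fall was uneven, since replicates 1 and 3 kept more signal than replicates 2 and 4. Cyp2c6v1, a form found in both sexes, had a log2 fold change of -0.00 (95% interval -0.18 to 0.18). Cyp2c transcripts are close relatives. The Cyp2c13 and Cyp2c6v1 probe sets are of types that can match several transcripts, so their signals are uncertain in this respect.

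**Figure D3:**
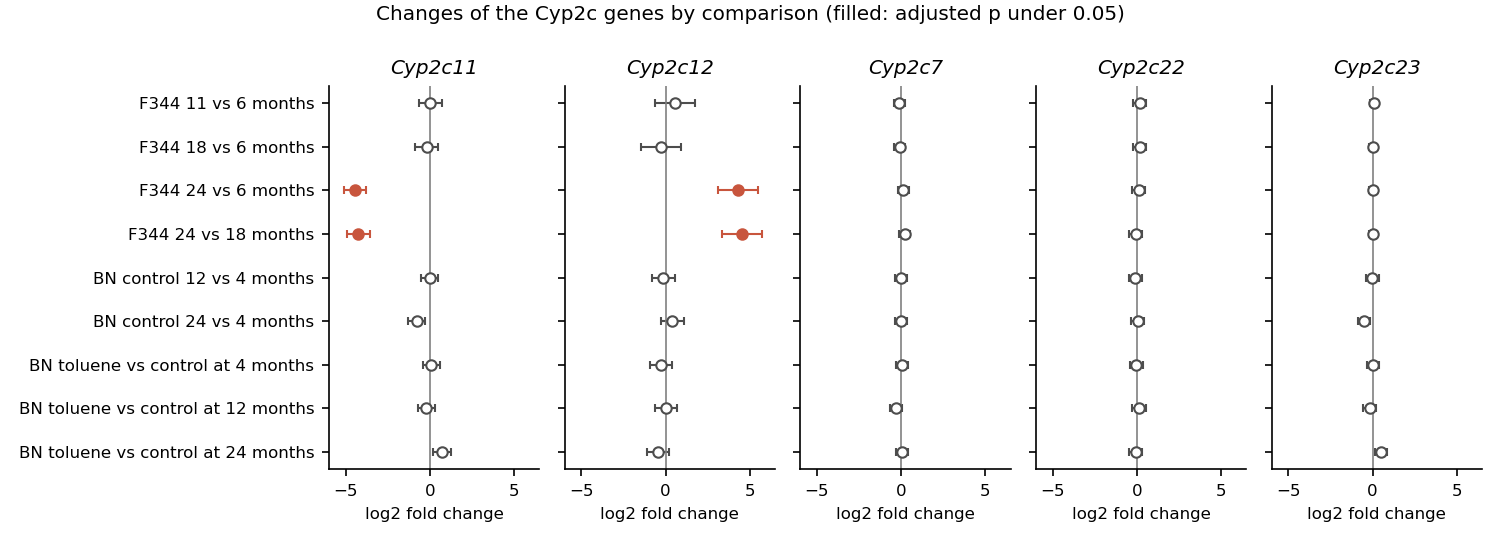
Log2 fold change of Cyp2c11, Cyp2c12, Cyp2c7, Cyp2c22 and Cyp2c23 (points, first-named group over the second) with its 95% interval in 9 comparisons. Filled orange points have an adjusted p under 0.05. Among these 5 genes and 9 comparisons, Cyp2c11 and Cyp2c12 in F344 rats of 24 months alone pass, at -4.44 and 4.30 against 6 months and at -4.25 and 4.55 against 18 months.

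Genes nearest to Cyp2c11 over the 16 F344 arrays, by Pearson r of log2 signal, were the estrogen sulfotransferase Sult1e1 (0.994), the odorant-binding protein gene Obp3 (0.983), the steroid-hydroxylating P450 Cyp3a2 (0.981), the steroid dehydrogenase Hsd3b5 (0.981) and the transporter gene Ust5r (0.974). Sult1e1 averaged 280 ± 157 at 24 months and 6365 ± 312 at 6 months (SD, n = 4 each). Nearest to Cyp2c12 were the aldo-keto reductase Akr1b7 (0.955), the repressor Cux2 (0.930), the coregulator Trim24 (0.910), A1bg (0.898) and the zinc transporter Slc39a10 (0.896). Akr1b7 averaged 2183 ± 775 at 24 months and 17.8 ± 6.42 at 6 months, where all 4 arrays lay under the floor. Slc39a10 exceeded the floor in all 4 rats of 24 months and in 0 rats of other ages, so it passed the filter only through that group and its r follows from floored values. At 6 months Cux2, A1bg and Akr1b7 were also above the floor on 0 of 4 arrays. At 11 and 18 months Cux2 was above it on 1 array each, and A1bg on 2 and 1. Without the 24-month rats Cux2 and A1bg fell short of the 4 arrays of the filter, so they too passed only through that group. These r values describe 16 arrays that fall into 2 clusters, the 24-month rats and the rest, and they share that split.

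**Figure D4:**
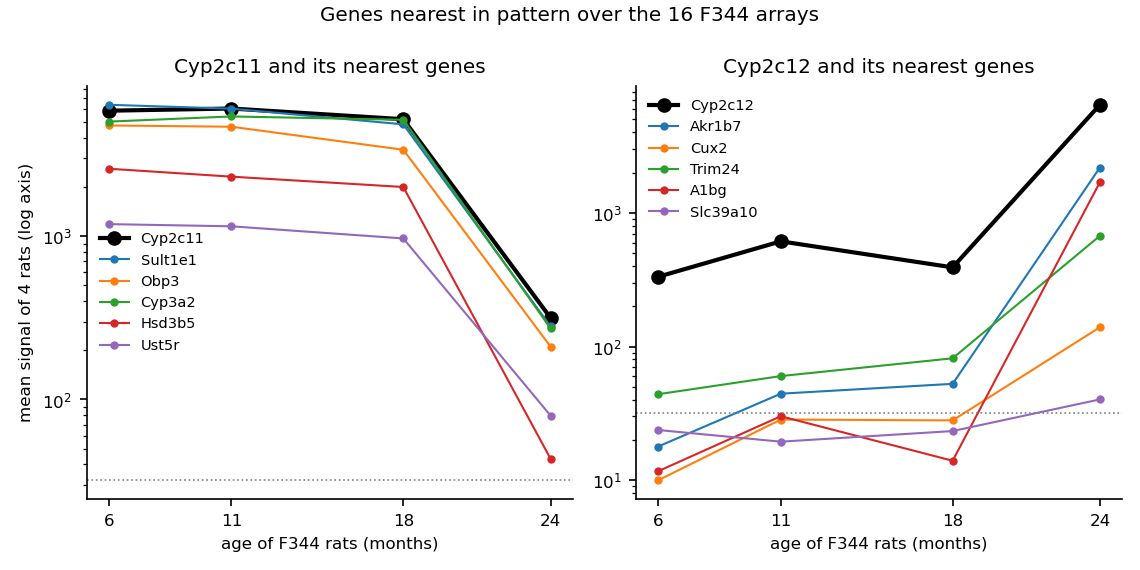
Mean signal of 4 F344 rats at each age (log axis, dotted line at the floor of 32) for Cyp2c11 and Cyp2c12 (thick black lines) and the 5 genes nearest to each. The shapes can be compared, not the heights. The genes beside Cyp2c11 fall at 24 months, Sult1e1 to 280, and those beside Cyp2c12 rise, Akr1b7 to 2183.

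Other genes with a sex pattern were counted at 24 against 6 months, from lists drawn up with results of these data known. Of 9 tested male-pattern genes outside Cyp2c, 8 fell and 0 rose, where 2.97% of all genes fell and 4.43% rose. Their median log2 fold change was -4.15, beside -0.01 over all genes tested. Of 11 tested female-pattern genes, 8 rose and 2 fell. Their median was 2.11, the value of Cux2, whose 6-month arrays lay under the floor, so it is a lower bound. Cux2 and A1bg, both counted among the 8, passed the filter on low signals only through the 24-month group. Trim24 averaged 674 ± 108 at 24 months and 44.0 ± 5.04 at 6 months (SD, n = 4 each). The 2 that fell were the oxidase genes Hao2 and Fmo1. All livers were from males, so the sex labels of the lists could not be checked here. Hao2 averaged 365 ± 141 at 24 months and 3256 ± 437 at 6 months. Fmo1 is named for its place in that count, chosen after its value was seen. At 24 against 18 months 8 of the 9 male-pattern genes fell, and 5 of the 11 female-pattern genes rose and 1, Hao2, fell, where 1.76% of all genes passed. At 18 against 6 months, when Cyp2c11 and Cyp2c12 had not passed, 1 of the 9 and 1 of the 11 had, where 1.08% of all genes passed. The male-pattern gene Dhrs7l1 was lower at 18 months (994 ± 609) than at 6 months (2378 ± 349; adjusted p = 0.0487, limma). The female-pattern gene Prlr was higher at 18 months (318 ± 111) than at 6 months (61.0 ± 29.0; adjusted p = 0.0143, limma).

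Of 11 tested growth hormone signalling genes 1 passed, near the 7.4% of all genes. It was the prolactin receptor gene Prlr, which averaged 899 ± 209 at 24 months and 61.0 ± 29.0 at 6 months. Prlr has several probe sets, and choosing after the floor takes another of them. Stat5b, the main transducer of the hormone's pulses, averaged 35.8 ± 7.36 at 24 months and 52.1 ± 8.93 at 6 months, close to the floor (log2 fold change -0.49, adjusted p = 0.135, limma). Of 17 liver transcription factors 1 passed, also near the 7.4% of all genes. It was Cux2, a female-biased repressor, which passed the filter on low signals only through the 24-month group. It averaged 139 ± 19.0 at 24 months and lay under the floor in all 4 rats of 6 months, at least 4.32-fold higher. Nr1i3, which encodes the receptor CAR, did not pass (log2 fold change -1.35, adjusted p = 0.117).

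Genes for the cofactors and substrates of the Cyp2c enzymes were counted next, beside 7.4% of all genes. Of 12 tested for electron supply and heme, Hmox1, which degrades heme, rose (log2 fold change 1.07, adjusted p = 0.011), and Pgrmc1, a P450-binding heme protein, fell (-0.33, adjusted p = 0.0488). Of 14 retinoid genes 2 rose and 4 fell. Cyp26a1, which clears retinoic acid, averaged 149 ± 33.96 at 24 months and 20.8 ± 13.9 at 6 months, where 3 of 4 arrays lay under the floor. The retinoic acid receptor gene Rarb also rose. Dhrs3, a retinal reductase, fell (-0.92, adjusted p = 0.000397), as did Rdh16, Rdh7 and Cyp26b1, with Rdh7 and Cyp26b1 named after their values were seen. Of 11 genes of arachidonate oxidation, Cyp4a8 rose (1.68) and Cyp4f4 fell (-0.67). Of 18 other P450s of families 1 to 3, 8 fell and 1 rose. Those that fell include Cyp3a2 (-4.42), Cyp2a2 (-4.15) and Cyp3a18 (-1.56), which also belong to the male-pattern list. Of 12 CAR and PXR targets 1 passed, a share near that of all genes, the glutathione transferase gene Gsta3, which rose (1.46).

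RNA and cell makeup were measured beside these results. The summed signal of 5 hepatocyte markers was 26991 to 28611 at 24 months and 26152 to 27715 at 6 months. Macrophage markers rose for 3 of 7 genes (Cd68, Clec4f and Fcer1g), with sums of 3698 to 4883 at 24 months and 2221 to 3108 at 6 months. Of 4 tested markers of T and cytotoxic cells, 3 rose (Cd8a, Gzmk and Klrd1). Over all genes 4.43% rose. Cholangiocyte sums were 229 to 274 at 24 months and 98.7 to 178 at 6 months, without overlap. The 1 measured gene of B and plasma cells, Jchain, gave 84.5 to 215 and 43.9 to 72.8, also without overlap. No gene of either set passed. Endothelial and stellate sums overlapped between these ages. In bulk liver, fewer cells of a type and less RNA per cell cannot be told apart. The ratio of 3′ to 5′ GAPDH signal, a measure of RNA integrity, was 1.38 to 2.17 at 24 months and 1.66 to 4.35 at 6 months. With this ratio as a covariate, and without the 5 F344 arrays above 2.5, Cyp2c11 and Cyp2c12 still passed.

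In Brown Norway controls neither gene passed the test with age. Cyp2c11 gave 2129, 4296 and 2524 in controls of 24 months, against 5063, 4742 and 4956 in controls of 4 months. The groups did not overlap, as for 12.8% of all genes. The log2 fold change was -0.79 (SE 0.24, 95% interval -1.30 to -0.28), with an unadjusted p of 0.00491 and an adjusted p of 0.176 in limma over 8584 genes. Cyp2c23 gave 1869, 3356 and 3457 at 24 months, against 4289, 3679 and 4036 at 4 months, a log2 fold change of -0.52 (adjusted p = 0.236, limma). Of the 5 genes, 0 passed in limma, 2 had an unadjusted p under 0.05, and 0.245% of all genes passed, with 11.6% at an unadjusted p under 0.05.

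Cyp2c12 stayed close to the floor in Brown Norway rats, between 10.7 and 50.5 in 17 of 18 animals. The exception was replicate 1 of the 24-month controls, at 111. That animal also had the lowest Cyp2c11 (2129) and Cyp2c23 (1869) of the strain. Its hepatocyte marker sum (30993) and its Cyp2c22 signal (5456) were the highest of the strain. Its macrophage marker sum was 7332, against 3531 and 3737 in the other controls of 24 months and 1769 to 2234 at 4 months. The part of macrophage RNA in these values was not tested. Without this animal the log2 fold change of 24 against 4 months was -0.58 for Cyp2c11 (adjusted p = 0.619, limma) and -0.23 for Cyp2c23. Without replicate 2 it was -1.09 for Cyp2c11, with an adjusted p of 0.0201.

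At 12 against 4 months and at 24 against 12 months, 0 of the 5 genes passed in limma in Brown Norway controls. The counts with an unadjusted p under 0.05 were 0 and 2, and over all genes 3.9% and 14.6%. Of all genes 0% and 0.0233% passed. Cyp2c11 differed by -0.78 between 24 and 12 months (adjusted p = 0.19). In these controls 0 of 9 tested male-pattern genes outside Cyp2c passed with age. Their median log2 fold change was -0.64 at 24 against 4 months, beside -0.00 over all genes. At 24 against 12 months it was -0.51, beside 0.02 over all genes. Of 7 tested female-pattern genes, 0 rose and 1, Cyp3a9, fell at 24 against 4 months, where 0.245% of all genes passed. Cyp3a9 was lower at 24 months (815 ± 349) than at 4 months (2487 ± 268; SD, n = 3 each; adjusted p = 0.0238, limma).

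Toluene gave no call for any of the 5 genes at 4, 12 or 24 months or over the 3 ages in limma, where 0.0233%, 0.0349%, 0.0582% and 0.0699% of genes passed. The numbers with an unadjusted p under 0.05 were 0, 0, 2 and 0, and over all genes 3.16%, 4.61%, 11.1% and 5.24%. At 24 months Cyp2c11 gave 4283, 4702 and 5131 in dosed rats, against 2129, 4296 and 2524 in controls, and the groups overlapped by a small margin. The log2 fold change was 0.72 (95% interval 0.21 to 1.23, adjusted p = 0.324, limma). Cyp2c23 gave 3805, 3971 and 3987 in dosed rats, against 1869, 3356 and 3457 in controls. These groups did not overlap, as for 16.8% of genes (log2 fold change 0.49, adjusted p = 0.333). Marker sums moved with this contrast. The macrophage sum was 2127 to 3400 in dosed rats and 3531 to 7332 in controls, and the hepatocyte sum 24889 to 27279 in dosed rats and 28180 to 30993 in controls, both without overlap. Their part in the Cyp2c values was not tested. The comparisons with age and with toluene share the 24-month controls, and dosed rats of 24 against 4 months differed by -0.15 for Cyp2c11 and by -0.04 for Cyp2c23.

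Differences in the toluene effect between ages gave 0 calls for the 5 genes in limma. Over all genes 0.0116% passed for 24 against 4 months, 0% for 12 against 4 months and 0.0349% for 24 against 12 months. At an unadjusted p under 0.05 stood 0, 0 and 2 of the 5, and 4.89%, 3.15% and 11.5% of all genes. Replicate 3 of the 12-month dosed rats stood apart, with Cyp2c11 at 2804 and Cyp2c7 at 3120, against 5301 and 5107 for Cyp2c11 in the other dosed rats of that age. Without it, the difference of the Cyp2c11 effect at 24 and 12 months was 0.63, against 0.93 with it.

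A few genes on the lists around the Cyp2c enzymes passed in dosed rats. Alas1, the rate-limiting enzyme of heme synthesis, averaged 2491 ± 75.3 in dosed rats of 4 months and 681 ± 57.5 in controls (SD, n = 3 each; log2 fold change 1.87, adjusted p = 0.00774, limma). At 12 months it averaged 2752 ± 118 in dosed rats and 754 ± 139 in controls (adjusted p = 0.00548). At 24 months it averaged 928 ± 197 in dosed rats and 533 ± 216 in controls and did not pass (log2 fold change 0.87, adjusted p = 0.284). Nr0b2, a repressor of nuclear receptors, rose at 12 months (392 ± 142 in dosed rats, against 50.4 ± 10.6 in controls, adjusted p = 0.037, limma). Ahr rose over the 3 ages (log2 fold change 0.75, adjusted p = 0.0291). Of 12 CAR and PXR targets, Alas1 alone passed over the ages.

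The strains were compared by the difference between their age changes, F344 at 24 against 6 months minus Brown Norway controls at 24 against 4 months, in 1 limma fit over 34 arrays and 7956 genes. The difference was -3.65 for Cyp2c11 (SE 0.43, adjusted p = 4.74e-06) and 3.89 for Cyp2c12 (SE 0.71, adjusted p = 0.00538), the largest positive difference of the 7956. Of the 5 genes 2 passed, where 0.402% of all genes passed. Cyp2c13 also differed, by -2.31 (adjusted p = 0.0443). Cyp2c23 did not pass (0.56, adjusted p = 0.359), nor did Cyp2c7 (0.15) or Cyp2c22 (0.05). The youngest ages differ, at 6 and 4 months, and strain cannot be told apart from housing. The ratio of 3′ to 5′ GAPDH signal also differed by strain, at 0.77 to 0.94 on Brown Norway arrays and 1.31 to 7.33 on F344 arrays.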

How the data were processed

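Total RNA of single livers was hybridised to arrays. The values are the authors' deposited linear probe set intensity, 1 column per animal; per the submitters' processing notes MAS5 and RMA were used, with no version, role or order given. Scaling differs between strains (median signal 35.6 to 38.3 in Brown Norway, 44.9 to 47.1 in F344 rats), and the number of arrays limits precision. Signals were raised to a floor of 32 and log2 was taken. One probe set stood for a gene, that of highest mean log2 signal as deposited. This reading of the rule was settled after results had been seen, and choosing after the floor is an added alternative. Tested genes exceeded the floor on 4 or more F344 arrays or on 3 or more in Brown Norway rats, minimums from earlier work that had seen the data. Group means were fitted within strain with limma 3.58.1 in R 4.3.3, Benjamini-Hochberg adjusted over all tested genes, threshold 0.05. The fit was tested on simulated data. Members and lists were chosen with earlier results of these data known. Genes named are the members, every other Cyp2c gene, up to 4 genes of smallest p per list, and the 5 nearest genes of each member with a call. Other alternatives were scaling, floor, filter, moderation, array weights, GAPDH ratio and leaving out animals.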

Additional observations from a re-analysis of the deposited data

Results flagged for a closer look

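The Cyp2c22 signal of replicate 1 of the 11-month F344 rats, 4253, lay below the other 3 rats of its group by Dixon's test of log2 signals. The 28 sets looked at were 7 Cyp2c genes in 4 F344 groups of 4 rats. This was the only set marked on the log2 scale, and chance marks about 1 in 20. The mark depends on that scale. Brown Norway groups of 3 were not looked at in this way. The age change differed between strains by a direct test for Cyp2c11 (-3.65 on the log2 scale, F344 minus Brown Norway), for Cyp2c12 (3.89) and for Cyp2c13 (-2.31).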

How the results depend on the processing

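Over the alternatives, 2628 values of the 5 genes were recomputed: 2626 kept their call, 2 gained one, and 0 lost one or reversed, while 112 changed sign with no call on either side. Cyp2c11 in F344 rats at 24 against 6 months lay between -4.78 and -4.05 on the log2 scale over 30 alternatives, and Cyp2c12 between 4.08 and 4.41, all called. Leaving out 1 animal gave 0 to 1 called genes among the 5 for Brown Norway controls at 24 against 4 months and at 24 against 12 months. The 1 was Cyp2c11 without replicate 2 of the 24-month controls (-1.09 and -1.08, adjusted p = 0.0201 and 0.0414). For the strain difference the count was 1 in place of 2 with the higher floor and with genes above the median signal, where Cyp2c12 was no longer among the 4 tested. Choosing probe sets after the floor, an alternative chosen after seeing the data, tested 9214 and 8586 genes in place of 9206 and 8584 and changed no call of the 5. Counts over all genes moved more: 681 at 24 against 6 months in F344 rats became 407 without arrays of high GAPDH ratio, 1153 with array weights and 392 without replicate 1 of 24 months, and 21 in Brown Norway controls at 24 against 4 months became 0 to 137 without 1 animal. No paired analysis was possible because animal numbers do not recur between groups. Low signals limit Cyp2c12 in Brown Norway rats, which lay near the floor.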
